A study of Mus musculus with 14 samples.

Results

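The ATP-binding cassette (ABC) genes of mouse liver were described in male Apoe-deficient mice that ate a Western diet with or without erythrodiol. Members were all genes of the deposited expression table whose symbol starts with Abc, a subfamily letter from a to g and a digit. This gave 47 of 17552 genes, of which 40 held at least 100 counts in both groups together, as did 13291 of all genes. ABC proteins bind and hydrolyse ATP and most of them use it to carry a substrate across a membrane. In hepatocytes, those of the canalicular membrane, which faces the bile, export bile salts, phospholipid, sterols and conjugated waste products, those of the blood-facing membrane pass cholesterol to lipoproteins and conjugates to plasma, and others serve peroxisomes, mitochondria and lysosomes. Several are known targets of nuclear receptors that sense oxysterols, bile acids and foreign compounds.

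The control group received the Western diet alone and the erythrodiol group the same diet with erythrodiol, a pentacyclic triterpene of the olive, at 10 mg/kg. All mice were males labelled C57BL/6 (C57BL/6J in the methods of the study), lacking a functional gene for apolipoprotein E, so both groups carried that deficiency. Each group was sequenced as 7 libraries, each made from pooled poly-A liver RNA of 2 or 3 mice, from 14 control and 15 erythrodiol mice. The labels give an age of 8 weeks and 8 weeks on the diet, whereas the methods of the study give mice 2 months old and 12 weeks on the diet.

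For each gene the deposited table holds 1 expected count per group, summed over its 7 libraries, and the sums over all genes were 122889032 for control and 124686047 for erythrodiol. No value per library was at hand for any ABC gene, so the spread between pools is unknown, nothing below could be tested against it, and no p-value is given. The 95% intervals are exact intervals (Clopper-Pearson) of the ratio of the pooled counts and cover counting error only. Control libraries held from 34856340 to 55244294 clean reads and erythrodiol libraries from 47669656 to 48058606. In 1 control library 64.33% of reads mapped to genes and 76.66% to the genome, against at least 74.39% and 91.98% in the other 6, and its share in the control sums could not be taken out. Reads mapped to a unique place in the genome were 55.27%, 62.64%, 41.62% and 56.16% in control replicates 1 to 4. They were 67.23% to 69.06% in control replicates 5 to 7 and 64.03% to 68% with erythrodiol. Reads mapped to a unique gene ran from 51.36% to 67.12% in control and from 57.85% to 65.32% with erythrodiol. The 8 hepatocyte markers examined summed to 99083 counts per 1000000 counts (CPM) in control and 98131 with erythrodiol, of which Alb alone gave 80551 and 77520 and the other 7 gave 18533 and 20612, and none of the 5 striated muscle markers reached 100 counts. Apoe itself held 9403 counts in control and 8293 with erythrodiol, and gene counts do not show which part of the gene those reads came from.

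The ABC genes together made up a small share of all counts, 0.379% in control and 0.463% with erythrodiol. That share was higher with erythrodiol, as were the values of 71.2% of all genes scaled by the group totals. A few genes of hepatocyte export and of peroxisomes supplied much of the ABC counts. The 4 with the most counts were Abcb11, Abcd3, Abcc2 and Abcb4, which held 43.4% of ABC counts in control and 44.5% with erythrodiol. The level in CPM per kilobase of transcript, the scale on which genes can be compared with each other, was highest for Abcd3 (129.5 in control, 149.98 with erythrodiol), followed by Abcb11 (104 and 124.5). In control the order then ran Abcb4, Abcc2, Abcc3, Abcg2, Abcg5, Abca6, Abcg8 and Abcc6. At the other end of the 40 genes were Abcb9, Abcc12 and Abcb1b, all under 0.6 in control on that scale.

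**Figure D1:**
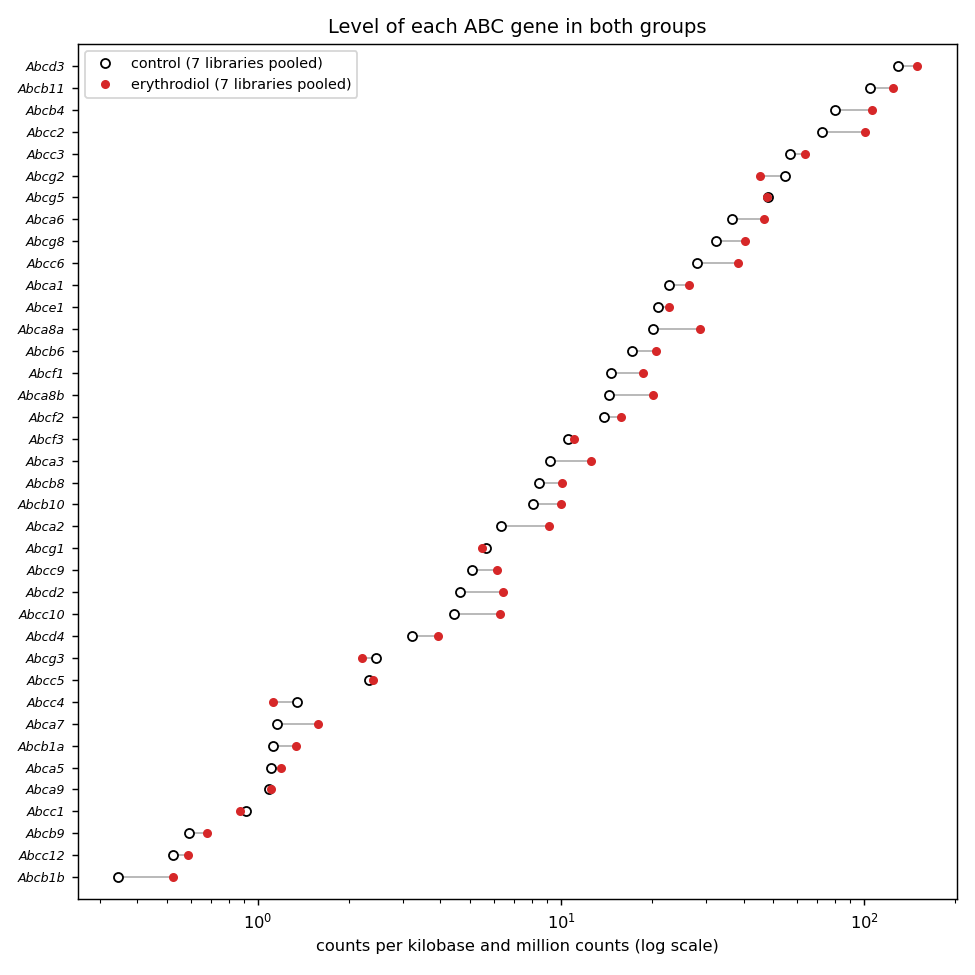
Level of the ABC genes with at least 100 counts (2 are not shown), in CPM per kilobase on a log scale; open circles are the control group and filled circles the erythrodiol group, each the sum of 7 libraries with no replicate error. Most filled circles lie to the right of their open circle, while those of Abcg2, Abcg3 and Abcc4 and, by little, of Abcg1, Abcg5 and Abcc1 lie to the left.

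Scaled by the group totals, 34 of the 40 genes (85%) had a higher value with erythrodiol and 6 a lower one, beside 71.2% of all genes higher and 28.8% lower. Of genes of like length, 83.3% were higher. The median log2 ratio of erythrodiol to control was 0.25, beside 0.16 over all 13291 genes. The counting interval of the ratio lay above 1 for 29 genes, below 1 for 3 and included 1 for 8, beside 54.6% of all genes with an interval above 1 and 17.4% with one below it, and 67.5% and 6.86% of genes of like length. Few of these differences were large. Only Abcb1b was at least 1.5-fold higher, where 2.55% of all genes were so, and none of the 40 was at least 1.5-fold lower, where 3.14% of all genes were. At a smaller limit, 13 of the 40 ABC genes, or 32.5%, were at least 25% higher, beside 24.4% of all genes, and none was at least 20% lower, beside 8.89% of all genes and 2.85% of genes of like length.

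The log2 ratio went with transcript length across the whole table, which bears on a family of mostly long transcripts. Over all genes with at least 100 counts Pearson's r of the log2 ratio with log2 length was 0.44 and Spearman's rho 0.43 (n = 13291 genes of the same pooled libraries, given as a description). The 665 shortest genes, of 333 to 915 bases, had a median log2 ratio of -0.30, and the 664 longest, of 7428 to 26655 bases, one of 0.35. The median ABC transcript had 4938.5 bases and the median gene 2856, and 36 of the 40 ABC genes were longer than the median gene. Within the family the relation was weaker, with r of 0.24 and rho of 0.21 over 40 genes. What makes the ratio go with length was not tested. Each ABC gene was therefore also set against the median of its length class, 1 of 20 classes of about equal size.

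Relative to genes of like length the family was evenly divided. The median of the 40 log2 ratios became 0.020, with 21 genes above 0 and 19 below, and 13 genes that were higher on the scale of totals came to lie below their class median. The share of ABC genes at least 25% higher by totals, 32.5%, stood beside 34.9% of genes of like length. Once length was taken into account, 1 ABC gene, Abcb1b, was at least 25% above its class, as were 6.23% of all genes and 3.37% of those of like length, and 4, Abcc4, Abcg2, Abcc1 and Abcg3, were at least 20% below it, as were 13.3% of all genes and 10.8% of those of like length, beside 10% of the ABC genes. The spread among ABC genes on this scale, an SD of 0.21 over 40 genes, was smaller than that of 0.29 over all genes.

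**Figure D2:**
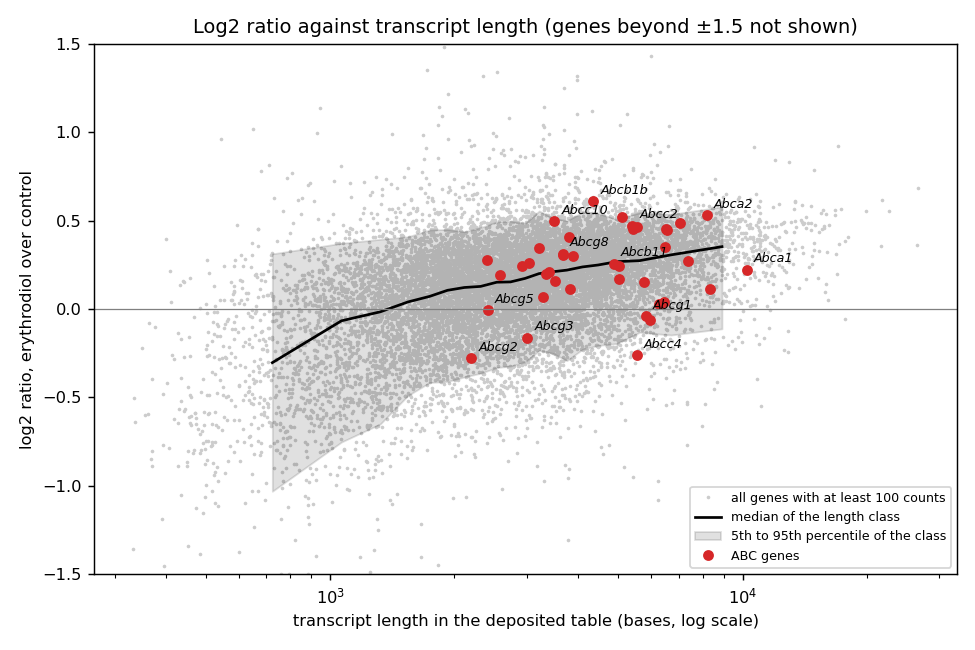
Log2 ratio of erythrodiol to control against transcript length in bases (log axis) for the genes with at least 100 counts; grey points are all genes, red points the 40 ABC genes, the line is the median of each of 20 length classes and the band its 5th to 95th percentile. The line climbs from -0.30 to 0.35, and ABC genes lie on both sides of it, with Abcc4 and Abcg2 well below.

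Abcb11, Abcb4 and Abcc2, the canalicular exporters of bile salts, phospholipid and conjugates, held more counts together than any other role group. All 3 had higher values with erythrodiol, as had 71.2% of all genes. Abcb11 encodes the bile salt export pump, Abcb4 the translocator that delivers phosphatidylcholine to bile, and Abcc2 a pump for bilirubin glucuronides and glutathione conjugates. Their median log2 ratio was 0.41, and 0.18 relative to genes of like length, where Abcb11 lay below the family's median and the other two above it. Genes of other role groups that also act at the canalicular membrane had log2 ratios of -0.28 in Abcg2, -0.0069 in Abcg5 and 0.31 in Abcg8. The 3 genes made up 31.8% of ABC counts in control and 33.5% with erythrodiol.

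Within the group the bile salt pump stood apart from the other genes. Abcc2 held 48221 counts in control and 67893 with erythrodiol, a ratio of 1.39 (95% counting interval 1.37 to 1.40), and Abcb4 held 37219.62 and 50009.45, a ratio of 1.32 (1.31 to 1.34). Abcb11 held 62387 and 75620, a ratio of 1.19 (1.18 to 1.21). The log2 ratio of Abcc2 exceeded that of Abcb11 by 0.22 (0.19 to 0.24) and that of Abcb4 did so by 0.15 (0.12 to 0.17), intervals that again hold counting error only. Against genes of like length, Abcc2 and Abcb4 lay above 88.5% and 87.0% of their classes, whereas Abcb11 lay above 47.7% and so at the middle of its own, at -0.012. Expected counts of Abcb4 were not whole, which means that some reads were divided between it and other genes. Together with the counts of Abcb1a and Abcb1b, its neighbours and relatives on chromosome 5, they add up to whole numbers in each group.

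The bases before the RefSeq transcript starts of these 3 genes (build GRCm38.p6) are shown because these genes act at the same membrane, so that their upstream letters can be set side by side with their values. The 150 bases ahead of each start are printed 5′ to 3′ on the strand of the gene, with matches to the motifs searched in capitals. They lie at chr2:69342617-69342766 on the minus strand for Abcb11, chr5:8893571-8893720 on the plus strand for Abcb4 and chr19:43782158-43782307 on the plus strand for Abcc2. The Abcb4 gene begins at 8893614 in RefSeq, ahead of the transcript start used, 8893721. Most of the Abcb4 bases, with both marked motifs, therefore lie inside the annotated gene.
Abcb11: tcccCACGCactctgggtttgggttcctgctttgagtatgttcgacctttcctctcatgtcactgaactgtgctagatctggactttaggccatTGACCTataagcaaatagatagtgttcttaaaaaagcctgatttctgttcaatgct
Abcb4: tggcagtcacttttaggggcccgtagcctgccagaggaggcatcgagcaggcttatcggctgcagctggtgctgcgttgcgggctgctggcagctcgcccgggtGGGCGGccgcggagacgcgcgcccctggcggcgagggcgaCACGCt
Abcc2: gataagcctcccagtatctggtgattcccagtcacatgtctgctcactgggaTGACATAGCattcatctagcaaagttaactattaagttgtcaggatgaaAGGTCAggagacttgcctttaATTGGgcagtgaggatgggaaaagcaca

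Both strands of the 250 bases before each start were searched, and 42 promoters of 35 ABC genes were in the table, beside 32851 promoters of all genes. AGGTCA, the half-site that many nuclear receptors bind, was found before Abcb11 (as TGACCT) and Abcc2, and before Abcb6, Abcc10 and Abcg2. It was in 16.7% of the ABC promoters and in 14.02% of all promoters. TGACNNNGC, the core of the antioxidant response element, whose first bases can coincide with AGGTCA on the other strand, was found before Abcc2, Abcc4 and Abcc10, in 9.52% of the ABC promoters and 10.2% of all. GCGTG, the core of the xenobiotic response element, was found before Abcb11 and Abcb4 (as CACGC), in 31.0% and 28.2%. Abcb4 also held the GC box GGGCGG, present in 47.6% of the ABC promoters and 32.7% of all. CCAAT, present in 28.6% and 33.8%, was found before Abcc2, on the other strand, and before Abcb4, there outside the bases printed. A match of letters is a description and says nothing on its own of binding. Promoters of 12 ABC genes, among them Abca6, Abcb8, Abcc1, Abcc3, Abcc6, Abcc8, Abcd2, Abcd4, Abcg1 and Abcg4, were not analysed here.

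Sterol exporters differed among themselves more than the bile canalicular genes did. Abca1 encodes the transporter that loads cholesterol and phospholipid onto apolipoprotein A1, Abcg1 one that moves sterol to high-density lipoprotein and is prominent in macrophages, and Abcg5 and Abcg8 the partners of the dimer that secretes cholesterol and plant sterols into bile. The group's median log2 ratio was 0.11, and -0.13 relative to genes of like length, with 1 of 4 genes above its class. Abcg4, a relative of Abcg1, held under 100 counts.

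The Abcg5 and Abcg8 values went apart, although the proteins work as a dimer and the genes lie head to head. Abcg5 held 14279 counts in control and 14419 with erythrodiol, a ratio of 0.995 (0.972 to 1.02). Abcg8 held 14636 and 18454, a ratio of 1.24 (1.22 to 1.27). The log2 ratio of Abcg8 exceeded that of Abcg5 by 0.32 (0.27 to 0.37), or by 0.23 once each was set against genes of like length. Abcg5 lay above 29.2% of its length class and Abcg8 above 71.3% of its own. In RefSeq, Abcg5 occupies chr17:84658174-84683011 on the minus strand and Abcg8 chr17:84676302-84700333 on the plus strand, and 1 Abcg8 transcript starts inside Abcg5. The genes thus overlap, and the counting is not stated to use strand. Expected counts of both genes were whole in each group, unlike those of Abcb4. To which gene reads from the shared bases were given was not tested.

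The interval between the outer starts of the pair, at 84683011 for Abcg5 and 84683121 for Abcg8, is shown because both genes share it as their upstream sequence. It has 109 bases, chr17:84683012-84683120, printed 5′ to 3′ on the plus strand (toward Abcg8), and the capitals mark TATAAA, here on the strand of Abcg5.
Abcg5 and Abcg8: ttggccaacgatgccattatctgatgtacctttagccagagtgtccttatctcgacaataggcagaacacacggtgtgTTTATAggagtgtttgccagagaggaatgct

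TATAAA was found in 11.9% of the ABC promoters and 12.4% of all, and besides this pair before Abca1, Abca4 and Abcb6. No E-box, GC box, nuclear receptor half-site, CCAAT box or antioxidant or xenobiotic element core was marked in these 109 bases, while CCAAT was found farther from the outer Abcg8 start, within the 250 bases searched, and GCGTG before the start of the Abcg8 transcript that lies inside Abcg5.

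Abca1 and Abcg1, which both move cholesterol to lipoproteins, also lay apart. Abca1 held 28582 counts in control and 33854 with erythrodiol, a ratio of 1.17 (1.15 to 1.19), and its transcript of 10238 bases is the longest of the 40. Genes of that length had a median log2 ratio of 0.35, so Abca1, at 0.22, stood above 25.9% of its class. Abcg1 held 4029 and 3982 counts, a ratio of 0.974 (0.932 to 1.02), and stood above 10.9% of its class. Abca1 exceeded Abcg1 by 0.26 on the log2 scale (0.19 to 0.33).

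Macrophage markers had lower values beside these genes. Of 11 Kupffer cell and macrophage markers, all with at least 100 counts and none at 0, 10 had lower values with erythrodiol, beside 28.8% of all genes. At least 1.5-fold lower were 6 of them, beside 3.14% of all genes. Their median log2 ratio was -0.59, and -0.56 relative to genes of like length. Their sum was 1356 CPM in control and 903 with erythrodiol. Their part in the Abcg1 and Abca1 values was not tested, and in whole liver fewer cells of a type and less RNA per cell cannot be told apart. Nr1h3 and Nr1h2, the oxysterol receptors known to control Abca1, Abcg1, Abcg5 and Abcg8, had log2 ratios of 0.056 and 0.20, or -0.016 and 0.091 relative to genes of like length.

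The bases before the Abca1 transcript start at 53159895 are shown because the gene is the main exporter of cholesterol to plasma. They hold the E-box CACGTG, the GC box GGGCGG and, close to that start, TATAAA. The 150 bases lie at chr4:53159896-53160045 on the minus strand, printed on the strand of the gene. In RefSeq the gene reaches to 53159988, so part of these bases, with TATAAA, lies inside the annotated gene.
Abca1: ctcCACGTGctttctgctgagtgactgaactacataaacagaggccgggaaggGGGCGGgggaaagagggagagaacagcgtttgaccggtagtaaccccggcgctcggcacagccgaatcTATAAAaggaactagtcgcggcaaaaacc

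CACGTG was found before 5 ABC genes, Abca1, Abca8a, Abca15, Abcc4 and Abcf1, in 11.9% of the ABC promoters and 6.02% of all. The log2 ratios of the 4 of them with at least 100 counts ran from -0.26 in Abcc4 to 0.52 in Abca8a.

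Drug and conjugate exporters were the most divided group, with both the highest and the lowest log2 ratios of the family. Their median was 0.16, and -0.076 relative to genes of like length, with 3 of 10 genes above their class and 7 below. Their share of ABC counts was 16.1% in control and 14.9% with erythrodiol. Abcb1b and Abcb1a encode the mouse P-glycoproteins, which expel many drugs. Abcb1b, the least abundant of the 40 genes, held 183.74 counts in control and 284.36 with erythrodiol, a ratio of 1.53 (1.26 to 1.84). Abcb1a held 691.64 and 832.19, a ratio of 1.19 (1.07 to 1.31). The difference of their log2 ratios was 0.36 (0.059 to 0.67). They are close copies and their counts are fractional. Their counts add up to whole numbers in each group only together with those of Abcb4, which held 37219.62 and 50009.45. The split among Abcb1b, Abcb1a and the far more abundant Abcb4 is therefore uncertain.

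Abcg2 and Abcc4 lay at the low end. Abcg2, the breast cancer resistance protein, is a canalicular half-transporter of urate, porphyrins and drugs. It held 14822 counts in control and 12407 with erythrodiol, a ratio of 0.825 (0.806 to 0.845). Its transcript of 2196 bases is the shortest of the 40, yet it lay below most genes of that length as well, above 8.60% of them, at -0.40 on the relative log2 scale. Abcc2, which shares the canalicular membrane and some substrates with it, exceeded Abcg2 by 0.75 on the log2 scale (0.71 to 0.79), or by 0.60 relative to genes of like length.

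Abcc4 is a blood-facing exporter of cyclic nucleotides and, with glutathione, of bile salts. It held 914 counts in control and 774 with erythrodiol, a ratio of 0.835 (0.757 to 0.919), and only 12 of the 663 genes of its length class had a lower log2 ratio. Abcc3, the more abundant blood-facing exporter of glucuronides, held 35170 and 40105 counts, a ratio of 1.12 (1.11 to 1.14), and lay above 33.6% of its class. The Abcc3 log2 ratio exceeded that of Abcc4 by 0.43 (0.29 to 0.57).

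The other drug and conjugate exporters spread between these. Abcc6, whose activity releases ATP from hepatocytes and so supplies pyrophosphate to plasma, held 18681 and 25935 counts, a ratio of 1.37 (1.34 to 1.39). Abcc10 held 1909.41 and 2733.77, a ratio of 1.41 (1.331 to 1.497), and lay above 94.6% of its class, the highest place among genes of this group with at least 1000 counts. Its counts were not whole, and in RefSeq it overlaps another measured gene. Abcc5, an exporter of cyclic nucleotides, held 1844 and 1925 counts, with a log2 ratio of 0.041, and Abcc1, an exporter of leukotriene C4 and glutathione conjugates, held 667 and 648, with one of -0.063. The counting intervals of both, as that of Abcc12 with 226 and 256 counts, included a ratio of 1. Relative to genes of like length Abcc5 stood at -0.27 and Abcc1 at -0.34.

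**Figure D3:**
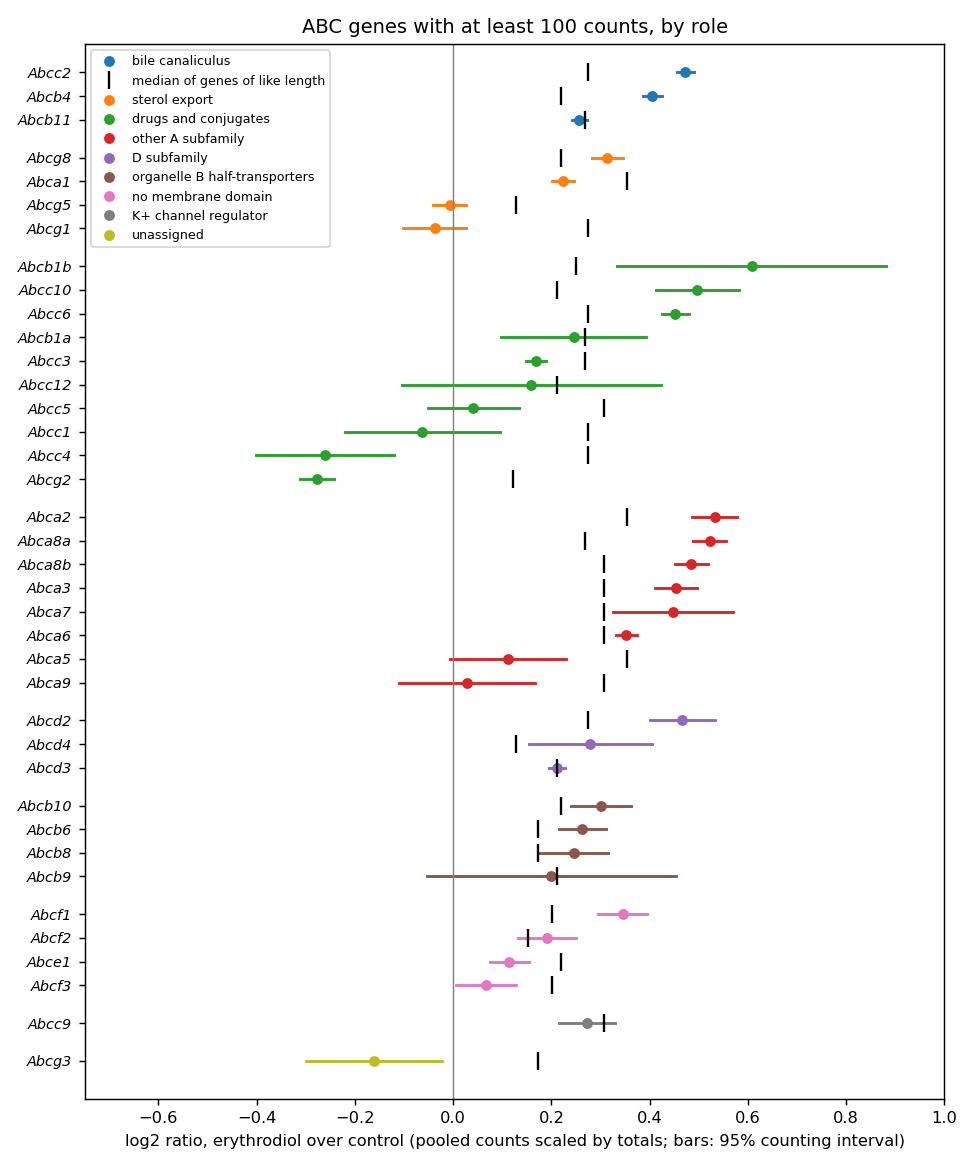
Log2 ratio of erythrodiol to control for the ABC genes with at least 100 counts (2 are not shown), grouped by role; points are ratios of pooled counts scaled by totals, bars their 95% counting intervals (not replicate error), and black ticks the median of genes of like length. Abcb4 and Abcc2 lie to the right of their ticks and Abcb11 on it, Abcg5 and Abcg1 lie left of theirs, and the drug and conjugate exporters run from -0.28 in Abcg2 to 0.61 in Abcb1b.

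The other A subfamily genes, full transporters of lipids, had the highest median of the groups with more than 1 gene, 0.45, while relative to genes of like length it was 0.14, below the 0.18 of the bile canalicular exporters. All 8 with at least 100 counts were above 0, as were 71.2% of all genes. Of them, 6 were at least 25% higher, beside 24.4% of all genes, and their length classes had median log2 ratios from 0.27 to 0.35. Abca2, a lysosomal lipid transporter best known from brain, held 6360 counts in control and 9331 with erythrodiol, a ratio of 1.45 (1.40 to 1.49). Abca3, the surfactant phospholipid transporter of lung, held 7353 and 10214, a ratio of 1.37 (1.33 to 1.41). Abca7, a phospholipid transporter, held 934 and 1292, with a log2 ratio of 0.45. Transcripts of this group are long, and Abca2, Abca3 and Abca7 lay above 90.0%, 82.2% and 80.6% of genes of like length.

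A cluster on chromosome 11 holds Abca8b, Abca8a, Abca9, Abca6 and Abca5, and its genes did not share 1 value. Abca8a held 12553.96 and 18290 counts, a ratio of 1.44 (1.40 to 1.47), and Abca8b 12433.04 and 17656, a ratio of 1.40 (1.37 to 1.43). The log2 ratios of these close copies differed by 0.037, with a counting interval of -0.0096 to 0.084, and fractional counts show that reads were divided between similar genes. Abca6, the most abundant of the cluster, held 29265.25 and 37916.95, with a log2 ratio of 0.35. Abca9, which lies between Abca8a and Abca6 on the chromosome, held 838 and 867 counts, with a log2 ratio of 0.028. Abca5 held 1127 and 1235, with one of 0.11. Abca8a exceeded Abca9 by 0.49 (0.35 to 0.63) and Abca6 exceeded it by 0.32 (0.19 to 0.46). Relative to genes of like length Abca8a stood at 0.25, above 95.3% of its class, and Abca9 and Abca5 at -0.28 and -0.24.

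Half-transporters of the D subfamily were all above 0 on both scales, with a median log2 ratio of 0.29, and 0.12 relative to genes of like length. By totals 71.2% of all genes were above 0, and relative to genes of like length 6640 of 13291 were. Abcd3 brings branched-chain fatty acids and bile acid precursors into peroxisomes, Abcd2 brings very long-chain acyl-CoA, and Abcd4 serves cobalamin export from lysosomes. Abcd3, with 54153 and 63617 counts, had a ratio of 1.16 (1.14 to 1.17) and stood at the middle of its class, above 50.2% of it. Abcd2, with 3179.10 and 4456.87 counts, had a ratio of 1.38 (1.32 to 1.45) and stood above 87.3% of its class. Abcd4, with 952.38 and 1171.98 counts, had a log2 ratio of 0.28. The Abcd2 log2 ratio exceeded that of Abcd3 by 0.26 (0.19 to 0.32).

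The 5 half-transporters of mitochondria and lysosomes were all above 0, as were 71.2% of all genes. Their median log2 ratio was 0.25, and 0.072 relative to genes of like length. Abcb10, needed for heme synthesis, was the highest of them, with a log2 ratio of 0.30. It held 3859 and 4821 counts and stood above 67.6% of its class. Abcb6, which carries porphyrins, held 6377 and 7761 counts, and Abcb8 held 3052 and 3670, with log2 ratios of 0.26 and 0.25. Abcb9, a lysosomal peptide carrier, held 242 and 282, and its interval included a ratio of 1.

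The E and F proteins lack membrane domains and work with ribosomes, Abce1 in recycling them and Abcf1 in starting translation. Their median log2 ratio was 0.15, and -0.033 relative to genes of like length. Abce1 held 9821 and 10788 counts, with a log2 ratio of 0.11, and Abcf1 5783 and 7452, with one of 0.34. Abcf2 (4395 and 5091 counts) and Abcf3 (4249 and 4517 counts) had log2 ratios of 0.19 and 0.067. Abcc9, the sulfonylurea receptor of vascular potassium channels, held 4612.95 and 5653.39 counts and a ratio of 1.21 (1.16 to 1.26). Abcg3, a half-transporter of rodents, held 907 and 823, with a ratio of 0.894 (0.813 to 0.984) and a relative log2 value of -0.33.

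By subfamily, the G genes had the lowest median. Of the 5 with at least 100 counts, 4 had a lower CPM with erythrodiol, as had 28.8% of all genes, and 1, Abcg8, had higher, while the counting intervals of Abcg5 and Abcg1 included a ratio of 1. Their median log2 ratio was -0.038, and -0.31 relative to genes of like length. Medians of the A, B, C and D genes were 0.45, 0.26, 0.17 and 0.29, and relative to genes of like length 0.14, 0.072, -0.052 and 0.12. G transcripts are shorter than those of A genes, with a median of 3004 against 6554 bases, and on the relative scale the difference between the subfamilies remained with the same sign. By the compartment terms in the deposited table, the 9 genes of the apical membrane had a median log2 ratio of 0.31 and the 3 of the basolateral membrane (Abcc1, Abcc3 and Abcc6) one of 0.17, or 0.093 and -0.10 relative to genes of like length. Abcc6 carried both terms and so counts in each, and Abcc4 and Abcg5 carried neither.

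The 7 members left held under 100 counts, with at most 57 in a group. They were Abca4, Abca13, Abca14, Abca15, Abca17, Abcc8 and Abcg4. Abca13 and Abcc8 were at 0 with erythrodiol and at 3 and 1 counts in control, at or under the 3 counts that a count of 0 allows, so no fold is given. Abca12, Abca16 and Abcb5 were not analysed here.

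Regulators and partners of these transporters, listed by function, gave the following values. All 14 genes of nuclear receptors and factors known to control ABC genes were above 0, as were 71.2% of all genes, with a median log2 ratio of 0.25, and 0.068 relative to genes of like length, where 9 were above and 5 below. They included Nr1h4, the bile acid receptor known to control Abcb11 and Abcb4, at 0.16, and Nr1i2 and Nr1i3, receptors of foreign compounds, at 0.086 and 0.30. The highest were Ppara, the fatty acid receptor, at 0.51 and Srebf2, the regulator of cholesterol synthesis, at 0.47. Relative to genes of like length Nr0b2, a repressor of bile acid synthesis, was highest at 0.42. None of the 14 was at least 1.5-fold higher, beside 2.55% of all genes.

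Partners in sterol and bile lipid transport had a median of 0.39, and 0.22 relative to genes of like length. At least 1.5-fold higher were 3 of 12, beside 2.55% of all genes. Among these were Cyp7a1, the rate-limiting enzyme of bile acid synthesis, 2.38-fold higher, and Stard4, a carrier of cholesterol within cells, 1.56-fold higher. Tmem30a, the partner of the canalicular flippase Atp8b1, had a log2 ratio of -0.0089 and Atp8b1 itself one of 0.31. Of 9 carriers that move bile salts and organic ions across the hepatocyte's blood-facing membrane, 7 held at least 100 counts, with a median log2 ratio of 0.037, and -0.069 relative to genes of like length. The log2 ratios of these 7 ran from -0.28 in Slco1b2 to 0.44, with Slc10a1, the main bile salt uptake carrier, at 0.18. Tap1 and Tap2, ABC genes of antigen presentation outside the symbol pattern, stood at 0.039 and 0.19.

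Markers of other liver cells were not spread evenly either. All 6 bile duct markers had lower values with erythrodiol, as had 28.8% of all genes, and none was at 0. Their median was -0.56, and -0.57 relative to genes of like length. Their sum was 117 CPM in control and 79.6 with erythrodiol, of which Spp1 alone gave 101.7 and 67.1. The counting intervals of Krt7 and Sox9 included a ratio of 1. Stellate cell and fibroblast markers had a median of 0.036 and endothelial markers one of 0.094, or -0.24 and -0.13 relative to genes of like length, and hepatocyte markers stood at 0.17 and 0.14. Lymphocyte markers had a median of -0.034, and 3 of 7 pancreatic markers with at least 100 counts one of -0.52. Of the pancreatic markers under 100 counts, Ctrb1 held 8 counts in control and 42 with erythrodiol and Cpa1 2 and 15. Prss2 held 15 and 8 and Pnlip 11 and 10, so the pancreatic markers did not share 1 direction. The part of any cell type in the ABC values was not tested.

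**Figure D4:**
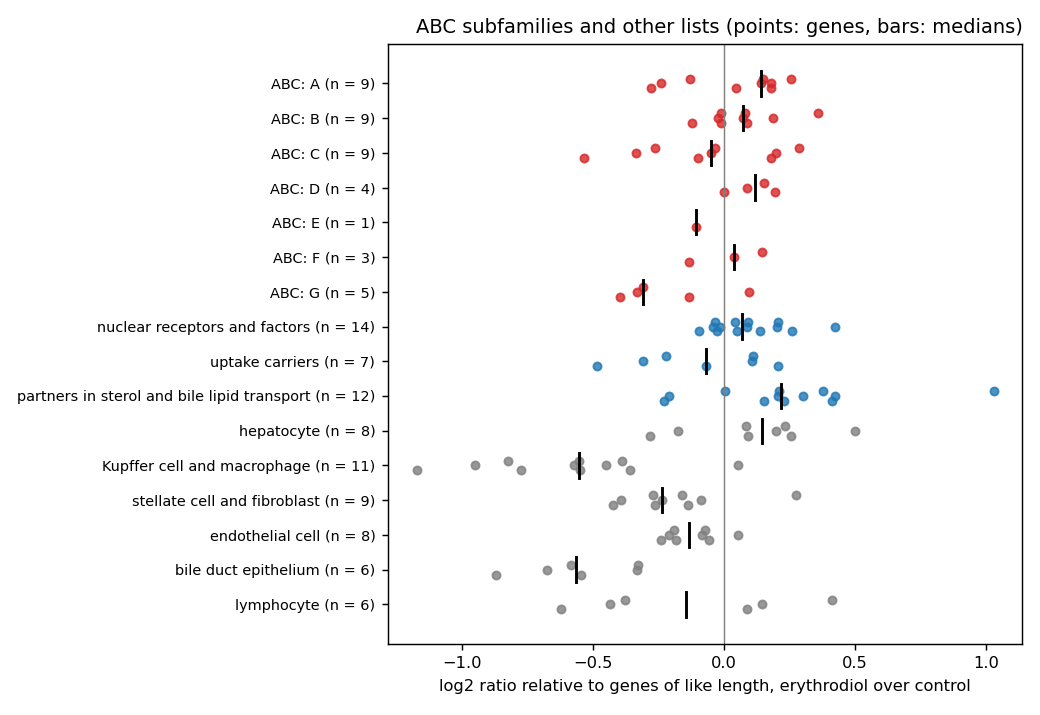
Log2 ratio of erythrodiol to control relative to the median of genes of like length, for ABC subfamilies (red), pathway lists (blue) and cell type markers (grey); each point is a gene with at least 100 counts and each bar the median of its list. The bar of the G subfamily (-0.31) lies left of those of the A (0.14) and D (0.12) subfamilies, and the bars of the macrophage (-0.56) and bile duct (-0.57) markers lie left of those of every ABC subfamily.

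New transcripts assembled by the authors were assigned to 19 of the 47 ABC genes, 46 transcripts in all, with the most in Abcc5 (7) and Abca2 (5). Of the 40 genes with at least 100 counts 47.5% had one, beside 35.8% of all such genes and 40.9% of genes of like length. None of the 16 splicing events in the authors' filtered lists lay in an ABC gene.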

How the data were processed

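The authors mapped clean reads with Bowtie2 to reference and newly assembled coding transcripts and deposited expected counts from RSEM, summed over the 7 libraries of each group and not normalised. The authors also deposited clean read counts and the percent of reads mapped to genes and, by HISAT, to the genome for each library. Versions are not given in the sources used here. The 4 columns of the authors' own comparison (log2 ratio, p-value, q-value, direction) were not used. Counts were scaled by group totals, and a minimum of 100 counts in both groups together was set. Genes of like length are those of the same of 20 classes. Intervals of the ratio (95%, Clopper-Pearson) used counts rounded to whole numbers, and those of differences between genes are normal approximations on the log scale. With 1 value per gene and group no test was possible. All 47 members matched RefSeq of GRCm38.p6, the build of the files, which supplied coordinates and promoters. A few genes are not reported here by name, and figures that name genes leave them out. The ratio computation was tested on simulated data. The members, roles and lists were chosen with earlier results of these data known. Any member with at least 100 counts could be named, with full values for those with at least 1000 counts or among the 3 highest or lowest, and other genes only where a result turns on them. Computations ran in Python 3.11.15 with scipy 1.17.1, pandas 2.3.3 and numpy 2.4.6, and figures were drawn with matplotlib 3.10.9.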

Additional observations from a re-analysis of the deposited data

Results flagged for a closer look

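Control replicate 3 lay far from the other 6 control libraries in the percent of reads mapped to genes and to the genome. It had 64.33% of clean reads mapped to genes, with the nearest library at 74.39%, a gap of 0.588 of the group's range. It had 76.66% mapped to the genome, with the nearest at 91.98%, a gap of 0.852 of the range. Chance marks about 1 in 20 groups in this way. Its part in the pooled control counts of the ABC genes was not tested.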

How the results depend on the processing

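No paired analysis was possible because each gene has 1 value per group, and for the same reason no library could be left out. The scaling moved the values most. The median log2 ratio of the 40 ABC genes, 0.25 by totals, was 0.089 centred on the median of all genes, 0.020 relative to genes of like length, and 0.15 with totals that leave out the 50 genes with the most counts. Without the 11 genes of fractional counts, whose reads were partly divided between genes, it was 0.19, a setting chosen after seeing the data. The 1 gene at least 1.5-fold higher became 0 under each of these 3 scalings, with a minimum of 1000 counts, among genes of whole counts and at a limit of 2-fold, 13 at a limit of 25% and 3 with no minimum (with Abca15 and Abcg4), where the 0.5 counts put in for a group at 0 also placed 2, Abca13 and Abcc8, past the lower limit, which is no measured fold. Centred on the median of all genes, the group medians were -0.054 for sterol exporters, 0.24 for bile canalicular exporters, 0.0017 for drug and conjugate exporters, 0.29 for other A genes, 0.13 for D genes, 0.083 for organelle B genes, -0.0091 for the E and F genes and 0.11 for Abcc9. Relative to genes of like length they were -0.13, 0.18, -0.076, 0.14, 0.12, 0.072, -0.033 and -0.034. With totals that leave out the 50 genes they were 0.0096, 0.31, 0.065, 0.35, 0.19, 0.15, 0.054 and 0.17. Of single genes, 13 changed sign relative to genes of like length (12 with 50 classes), 7 centred on all genes and 3 without the 50 genes, and Abcb1b kept its sign in all. Adding 0.5 counts to each group changed no log2 ratio by more than 0.0014. Counting error, the only error that could be given, limits the genes under 1000 counts most, and the error between pools is unknown.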
